A study of Homo sapiens with 6 samples.

Results

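The genes described here are 10 genes of the contractile actin cytoskeleton, taken by symbol from the 14959 genes of the deposited table. They are ACTA2, MYH9, MYL9, TPM1, TPM2, TPM4, CNN2, TAGLN, TAGLN2 and SRF, and each has a single row. RNA-seq was done on UM-SCC1, a long-established line of head and neck squamous cell carcinoma (HNSCC). The study compared 3 cultures transfected with miR-204-5p mimics with 3 cultures transfected with control mimics, each from an independent experiment, at 48 h after transfection. Mimics are synthetic RNA duplexes that enter the silencing machinery in place of the natural mature miRNA. All 6 cultures are of the same parental line and differ, as far as the labels tell, only in the oligonucleotide transfected. The level of miR-204-5p itself was not analysed here. The libraries of the treated group are called miR-204 libraries below and the others control libraries.

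Contraction of a non-muscle cell rests on filaments of actin that are pulled by myosin II. Myosin II is built of heavy chains with the motor, essential light chains and regulatory light chains, and it pulls when a kinase phosphorylates the regulatory light chain. Tropomyosins lie along the actin filament and set which proteins can bind it, while calponins and transgelins are related small proteins that bind and bundle actin. Many genes of this machinery are switched on by the transcription factor SRF, which binds a DNA element called the CArG box. Its partners are the myocardin-related factors, which enter the nucleus when free actin monomers run low, and the ternary complex factors of the ELK group, which respond to growth factor signaling. In smooth muscle the same genes are part of the differentiated state, and in carcinoma cells several of them are used as markers of a mesenchymal phenotype.

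The values were deposited as FPKM, fragments scaled to the kilobases of transcript and to the depth of the library, and levels are compared between genes on this scale only. Such comparisons hold as far as the transcript length behind each value does, and which length was used was not stated. Values are given for replicates 1, 2 and 3 in that order, then as the mean ± SD (n = 3). The log2 fold change (log2FC, with its standard error, SE) is that of FPKM + 1 and is positive where the miR-204 libraries were higher, and a gene was called higher or lower at an adjusted p-value under 0.05 in limma, with the Benjamini-Hochberg adjustment over all 14959 genes. The FPKM summed to between 283454 and 291864 in the miR-204 libraries and between 276822 and 280056 in the control libraries, without overlap. Spearman's correlation across genes was at least 0.9733 for every pair of libraries. Read counts were not recovered from the table, and depth was gauged from the finest spacing of FPKM × length. On that scale the lowest value of a contractile gene in a library, that of TAGLN, stood at 265 to 362 steps, and the highest at 20822 to 34134 steps. Less RNA per cell and fewer cells of a kind cannot be told apart in these bulk samples.

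The cells carried markers of squamous epithelium and few of smooth muscle. Of 10 genes that mark differentiated smooth muscle, DES, CNN1, ACTG2, MYOCD and CASQ2 have no row and were not analysed here. MYH11, the smooth muscle myosin heavy chain, stood at 0.354 ± 0.0205 FPKM in the miR-204 libraries and 0.579 ± 0.0563 in the control libraries. The other 4 were SMTN at 4.30 and 5.20 FPKM, SYNM at 2.87 and 4.22, LMOD1 at 0.986 and 0.578, and SYNPO2 under 0.1. Summed over the 5 markers with a row, the FPKM ranged from 8.22 to 9.12 in the miR-204 libraries and from 9.61 to 11.3 in the control libraries. Of 8 fibroblast markers, COL3A1, PDGFRA, DCN and THY1 have no row, and the other 4 summed to between 9.81 and 11.6 FPKM in the miR-204 libraries and between 8.58 and 9.41 in the control libraries. COL1A1 made up most of that sum, at 9.46 and 8.37 FPKM, and COL1A2, PDGFRB and LUM were all under 1. All 8 squamous epithelial markers had a row, KRT17, SFN and KRT5 being the most abundant, and they summed to between 869 and 964 FPKM in the miR-204 libraries and between 988 and 1022 in the control libraries. None of the 3 sums overlapped between the groups, and their part in the values below was not tested. The 10 genes are therefore called contractile genes and not smooth muscle genes.

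A miRNA lowers mRNAs mostly through matches to its seed, bases 2 to 8, in the 3′UTR. The mature sequence of miR-204-5p is shown with the seed in capitals, followed by the stretches of 30 bases that hold a seed match in a contractile gene, with the match in capitals. The miRNA is from RefSeq (GRCh38.p14, chr9:70810031-70810052, minus strand), and the 3′UTRs are those of GENCODE 29 on GRCh38.
hsa-miR-204-5p: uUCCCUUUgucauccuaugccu
MYL9: gggcttgtgggAAAGGGAggaccatgggaa
TPM1: tgtcactagaaAAAGGGAgaagtccggtaa
The matches sought were AAAGGGA (7mer-m8), AAAGGGAA (8mer, which contains the other 2) and AAGGGAA (7mer-A1), on the transcript strand, in whichever 3′UTR of a gene was longest. At least 1 of them was present in 4386 of 14832 genes with a 3′UTR (29.6%). Among the contractile genes only MYL9 and TPM1 held a match, each a 7mer-m8. That of MYL9 lies in exon 4 at chr20:36550084-36550090 (plus strand), in the transcript that the table lists, whose 3′UTR has 2198 bases. Of genes with a 3′UTR of like length, 36.6% hold a match. That of TPM1 lies at chr15:63046365-63046371 (plus strand), in exon 2 of a short transcript model that ends early and has a 3′UTR of 3493 bases, a length at which 49.5% of genes hold a match. The TPM1 transcript listed in the table, of 10 exons, has no match. ACTA2, MYH9, TPM2, TPM4, CNN2, TAGLN, TAGLN2 and SRF had none of these letters in the longest 3′UTR. Of their relatives described below, TPM3 and MYH14 held a 7mer-A1, at lengths where 38.2% and 36.7% of genes hold a match. The listed transcript of TPM3 holds its match, while that of MYH14 has no annotated 3′UTR.

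With miR-204-5p mimics the contractile genes split in direction. ACTA2 and TPM1 rose, MYH9, TPM2 and SRF fell, and MYL9, TPM4, CNN2, TAGLN and TAGLN2 did not pass the test. That 5 of 10 genes were called is near the share of all genes, 40.8%, while 16.8% of all genes were called lower and 23.9% higher. Neither of the 2 genes with a seed match was lower, since TPM1 was called higher and MYL9 had a log2FC of 0.13. No overlap between the groups was seen for 6 of the 10 genes, against 53.6% of all genes: 4 had all miR-204 libraries below all control libraries (22.7% of all genes), and 2 had every one above (30.9%). The median log2FC was −0.17 over the 10 genes and 0.03 over all genes. When libraries were scaled to equal medians, TPM4 and TAGLN2 were also called, which gave 5 lower and 2 higher. Under that scaling 3025 of all 14959 genes were called lower and 3023 higher. ACTA2, MYH9, TPM1 and TPM2 were called in the same direction under all 12 alternative settings, and SRF in 7 of the 12.

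**Figure D1:**
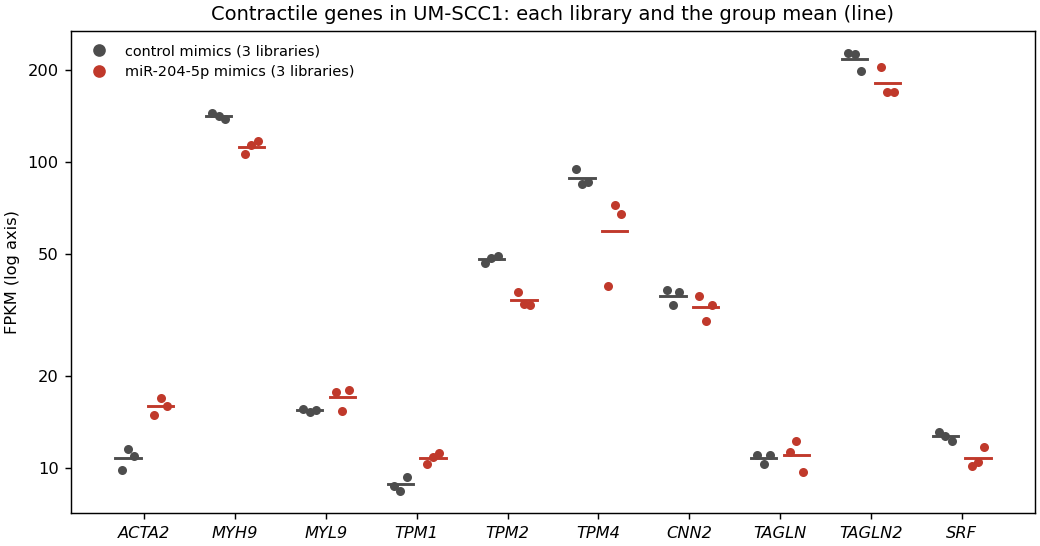
FPKM of the 10 contractile genes on a log axis, with 1 point per library (grey: control mimics, red: miR-204-5p mimics, replicates 1 to 3 from left to right) and a line at each group mean. ACTA2 and TPM1 have all red points above all grey points, MYH9, TPM2, TPM4 and SRF have all red points below, and TPM4 has a single red point at 39.2 FPKM far from the other two.

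ACTA2 encodes smooth muscle alpha-actin, which is a mark of myofibroblasts and contractile stress fibers. It lies on chromosome 10 (GRCh38, 88935074 to 88952773, minus strand, 9 exons). With miR-204-5p mimics the 3 libraries had 14.9, 16.9 and 15.9 FPKM, and with control mimics 9.86, 11.6 and 10.9. All 3 miR-204 libraries were above all 3 control libraries. ACTA2 rose from 10.8 ± 0.875 to 15.9 ± 0.984 FPKM, a log2FC of 0.52 (SE 0.0725, 95% interval 0.35 to 0.70, adjusted p = 0.00196 by limma). Across alternative settings its log2FC ranged from 0.46 to 0.57. Exons of the antisense gene ACTA2-AS1 overlap 516 bases of the listed transcript, and the strandedness of the libraries was not stated, so reads of the 2 genes cannot be told apart there.

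Measured against the other actins, ACTA2 was a small part of the pool. Of the 5 other actin genes only ACTB and ACTG1, the cytoplasmic beta- and gamma-actin of every cell, have a row. ACTG1 stood at 187, 298 and 304 FPKM in the miR-204 libraries and 521, 483 and 366 in the control libraries. It fell from 457 ± 80.7 to 263 ± 65.7 FPKM (log2FC −0.81, adjusted p = 0.02497 by limma), a call that was lost without control mimics replicate 1 (adjusted p = 0.0780), without control mimics replicate 2 (adjusted p = 0.0750) and with the replicate number as a block (adjusted p = 0.0557). ACTB stood at 685, 467 and 461 FPKM against 597, 696 and 849, and did not pass the test (log2FC −0.42, adjusted p = 0.125 by limma), though it was called lower without mimics replicate 1 (log2FC −0.61, adjusted p = 0.0274). The coding sequences of ACTB and ACTG1 are nearly alike, so how their reads were divided is uncertain, and within each group the library with the most ACTB had the least ACTG1. The summed FPKM of ACTA2, ACTB and ACTG1 varied less than either, at 817 ± 60.9 in the miR-204 libraries and 1181 ± 49.6 in the control libraries. ACTA2 made up 1.96% ± 0.248 of that sum with miR-204-5p mimics (1.68%, 2.16% and 2.04%) and 0.913% ± 0.0535 with control mimics (0.874%, 0.974% and 0.892%). This share and those of the myosin chains were computed after the values had been seen and were not tested.

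Among the myosins, the heavy chain fell while the regulatory light chain relatives of MYL9 rose. MYH9 encodes the heavy chain of non-muscle myosin IIA, the motor of most stress fibers, and lies on chromosome 22 (36281277 to 36388067, minus strand, 41 exons). It had 106, 113 and 117 FPKM in the miR-204 libraries and 145, 141 and 138 in the control libraries. The groups did not overlap, and all 3 miR-204 libraries were lower. MYH9 fell from 141 ± 3.58 to 112 ± 5.89 FPKM, a log2FC of −0.33 (SE 0.0475, 95% interval −0.44 to −0.22, adjusted p = 0.00228 by limma). MYH10, the heavy chain of myosin IIB, fell too, from 32.8 ± 0.396 to 28.5 ± 0.712 FPKM (log2FC −0.20, adjusted p = 0.00581 by limma). MYH14, the heavy chain of myosin IIC, stood at 18.5 ± 0.903 FPKM in the miR-204 libraries and 15.5 ± 1.72 in the control libraries. MYH14 did not pass the test (log2FC 0.25, adjusted p = 0.0513 by limma). It was called higher without control mimics replicate 2 (log2FC 0.33, adjusted p = 0.0136 by limma), with a pseudocount of 0.1 (adjusted p = 0.0495) and with low genes removed (mean FPKM under 1, adjusted p = 0.0430). The 3 heavy chains summed to 159 ± 6.06 and 189 ± 4.63 FPKM. MYH9 made up 70.5% ± 1.08 of that sum in the miR-204 libraries and 74.5% ± 0.649 in the control libraries.

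MYL9 encodes a regulatory light chain that is abundant in smooth muscle, and it lies on chromosome 20 (36541484 to 36551447, plus strand, 4 exons). It stood at 17.8, 15.4 and 18.02 FPKM in the miR-204 libraries and 15.7, 15.2 and 15.5 in the control libraries. Replicates 1 and 3 with miR-204-5p mimics were above all control libraries, while replicate 2 lay within the range of the control libraries. The means were 17.1 ± 1.44 and 15.5 ± 0.218 FPKM (log2FC 0.13, SE 0.0646, 95% interval −0.02 to 0.29, adjusted p = 0.154 by limma). Without mimics replicate 2 the log2FC of MYL9 was 0.20 and the adjusted p-value by limma was 0.0220. The broadly expressed regulatory light chains both rose. MYL12A went from 56.6 ± 2.24 to 95.8 ± 7.82 FPKM (log2FC 0.75, adjusted p = 0.000327 by limma) and MYL12B from 124 ± 5.39 to 165 ± 10.7 FPKM (log2FC 0.41, adjusted p = 0.00228 by limma). The summed FPKM of the 3 regulatory light chains was 278 ± 15.7 in the miR-204 libraries and 196 ± 6.05 in the control libraries, and the share of MYL9 in it was 6.15% ± 0.625 and 7.87% ± 0.218. The essential light chains MYL6 (log2FC −0.15, adjusted p = 0.173 by limma) and MYL6B (0.09, adjusted p = 0.274) did not pass the test. In all, 1 of the 6 other myosin II chains was called lower and 2 higher, near the shares of all genes (16.8% and 23.9%), with a median log2FC of 0.17 against 0.03 over all genes.

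Tropomyosin genes moved in opposite directions. TPM1 lies on chromosome 15 (63042632 to 63066093, plus strand, 10 exons) and makes both muscle and stress fiber isoforms. With miR-204-5p mimics it stood at 10.3, 10.9 and 11.2 FPKM and with control mimics at 8.74, 8.42 and 9.38, so all miR-204 libraries were higher. TPM1 rose from 8.85 ± 0.486 to 10.8 ± 0.462 FPKM, a log2FC of 0.26 (SE 0.0580, 95% interval 0.12 to 0.40, adjusted p = 0.0120 by limma).

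TPM2, on chromosome 9 (35681992 to 35684802, minus strand, 4 exons), encodes beta-tropomyosin and a stress fiber isoform. It had 37.4, 34.4 and 34.1 FPKM in the miR-204 libraries and 46.7, 48.6 and 49.4 in the control libraries. All miR-204 libraries were well below the lowest control library. TPM2 fell from 48.3 ± 1.39 to 35.3 ± 1.84 FPKM, a log2FC of −0.44 (SE 0.0480, 95% interval −0.56 to −0.33, adjusted p = 0.000773 by limma), the lowest adjusted p-value among the 10 contractile genes.

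TPM4, on chromosome 19 (16067021 to 16076141, plus strand, 3 exons), encodes a non-muscle tropomyosin. It had 39.2, 72.2 and 67.4 FPKM in the miR-204 libraries and 95.02, 84.9 and 85.6 in the control libraries. The miR-204 libraries all lay below the control libraries, and replicate 1 stood far below the others of its group. The coefficient of variation with miR-204-5p mimics was 29.9%. The means were 59.6 ± 17.8 and 88.5 ± 5.66 FPKM, and the log2FC of −0.61 did not pass the test (SE 0.220, 95% interval −1.14 to −0.08, adjusted p = 0.0670 by limma). Without mimics replicate 1 the log2FC was smaller, −0.34, and was called (adjusted p = 0.0141 by limma), without mimics replicate 2 it was −0.77 (adjusted p = 0.0487), and with libraries scaled to equal medians −0.66 (adjusted p = 0.0499). TPM3, the relative outside the 10 genes, stood at 75.1 ± 5.24 and 69.2 ± 3.42 FPKM (log2FC 0.11, adjusted p = 0.197 by limma), and was called higher without mimics replicate 1 (log2FC 0.17, adjusted p = 0.0486).

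Transcript choice bears on all 3 of these genes, since tropomyosin genes make many isoforms by alternative promoters and splicing. GENCODE 29 holds 34 transcripts of TPM1, 12 of TPM2 and 24 of TPM4, and the table gives a single value per gene beside a single listed transcript. For TPM4 that transcript has 586 bases and no annotated 3′UTR, where the longest has 3106 bases, and for TPM2 it has 1117 bases and begins within the gene. Whether the FPKM of a gene is that of the listed transcript or a sum over its transcripts was not stated, so isoform and gene level cannot be told apart.

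As shares of the summed FPKM of TPM1 to TPM4, TPM1 and TPM3 took more and TPM4 less in all miR-204 libraries than in any control library. The sum was 181 ± 21.7 FPKM in the miR-204 libraries and 215 ± 7.12 in the control libraries. TPM4 made up 25.1%, 36.9% and 35.4% of it in the miR-204 libraries and 42.9%, 41.0% and 39.6% in the control libraries, means of 32.5% ± 6.39 and 41.2% ± 1.66. The share of TPM3 was 41.7% ± 2.26 and 32.2% ± 0.830, and that of TPM1 was 6.02% ± 0.533 and 4.12% ± 0.201. For each of these 3 shares the groups did not overlap (two-sided exact permutation p = 0.1, and 3 against 3 cannot go lower). The share of TPM2, whose FPKM fell, was 19.8% ± 3.62 and 22.5% ± 1.22 and overlapped between the groups (two-sided exact permutation p = 0.4), with 24.0% in the library where TPM4 was lowest.

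**Figure D2:**
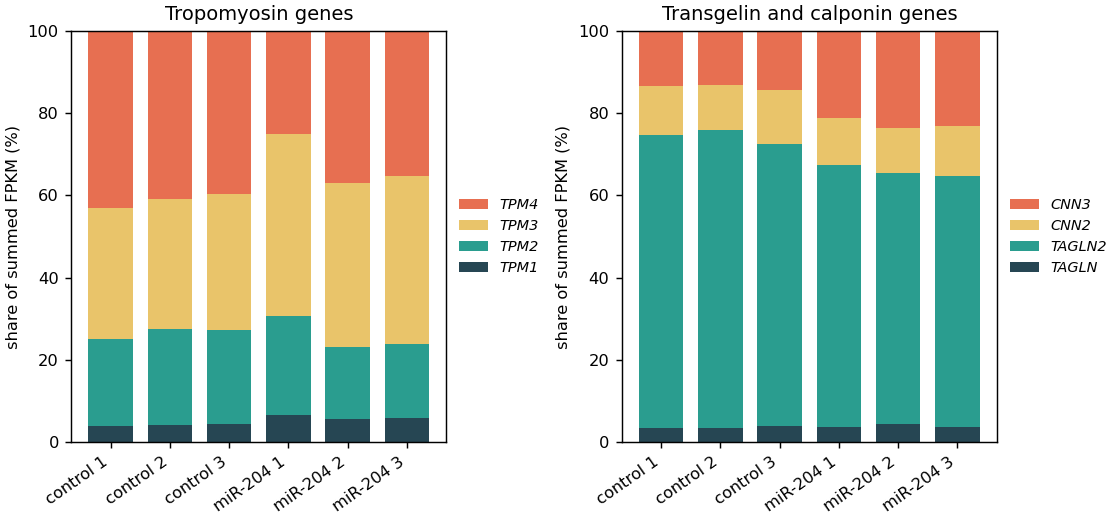
Stacked bars of the share of each gene in the summed FPKM (%) for TPM1 to TPM4 (left) and for TAGLN, TAGLN2, CNN2 and CNN3 (right), with 1 bar per library. TPM3 takes 41.7% of the tropomyosin sum in the miR-204 libraries and 32.2% in the control libraries, and CNN3 takes 22.6% and 13.6% of the other sum.

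Of the calponins and transgelins among the 10 genes, none passed the test, while their relatives CNN3 and TAGLN3 rose. TAGLN2 was the most abundant contractile gene in both groups and encodes the transgelin of non-muscle cells. It lies on chromosome 1 (159918107 to 159923717, minus strand, 5 exons). It had 203.5, 168 and 169 FPKM in the miR-204 libraries and 226, 225 and 198 in the control libraries. Mimics replicate 1 was above control replicate 3, and the other miR-204 libraries were below all control libraries. The means were 180.4 ± 20 and 216 ± 15.9 FPKM (log2FC −0.26, SE 0.0901, 95% interval −0.48 to −0.05, adjusted p = 0.0563 by limma). TAGLN2 lay near the threshold and was called lower under 7 of the 12 alternative settings, among them scaling to equal sums (adjusted p = 0.0266 by limma), quantile normalization (adjusted p = 0.02499), the replicate number as a block (adjusted p = 0.0394) and leaving out mimics replicate 1 (adjusted p = 0.0135) or control mimics replicate 3 (adjusted p = 0.0436).

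TAGLN encodes transgelin or SM22-alpha, an early smooth muscle gene and a marker of mesenchymal cells, and lies on chromosome 11 (117199321 to 117204557, plus strand, 5 exons). It had 11.3, 12.2 and 9.69 FPKM in the miR-204 libraries and 11, 10.3 and 11.02 in the control libraries. The range of the miR-204 libraries enclosed that of the control libraries. The means of 11.1 ± 1.29 and 10.8 ± 0.413 FPKM gave a log2FC of 0.03 (SE 0.0843, 95% interval −0.17 to 0.23, adjusted p = 0.794 by limma), whose sign turned with the scaling. ACTA2 and TAGLN overlapped in FPKM in the control libraries, and in the miR-204 libraries all values of ACTA2 were above those of TAGLN. CNN2, on chromosome 19 (1026581 to 1039068, plus strand, 7 exons), encodes the calponin of non-muscle cells. It stood at 36.3, 30.3 and 34.1 FPKM in the miR-204 libraries and 38.2, 34.1 and 37.4 in the control libraries, and the groups overlapped. The means were 33.6 ± 3.07 and 36.6 ± 2.17 FPKM (log2FC −0.12, 95% interval −0.31 to 0.06, adjusted p = 0.246 by limma), and CNN2 was called under none of the 12 settings. Without mimics replicate 2 its log2FC was −0.05, and over all single libraries left out it ranged down to −0.18. Exons on the opposite strand overlap 221 bases of the listed TAGLN transcript (PCSK7) and 338 bases of that of CNN2 (AC011558.1), and 95 bases of that of TPM4 (AC008894.3).

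CNN3, the acidic calponin, rose from 41.4 ± 0.814 to 65.5 ± 2.05 FPKM (log2FC 0.65, adjusted p = 9.58e-05 by limma). TAGLN3, a transgelin best known from neurons, rose from 2.72 ± 0.281 to 5.10 ± 0.356 FPKM (log2FC 0.71, adjusted p = 0.000881 by limma). CALD1, which encodes caldesmon, a further actin and myosin binding protein, rose from 6.56 ± 0.0250 to 8.58 ± 0.413 FPKM (log2FC 0.34, adjusted p = 0.00307 by limma). With TPM3, which was not called, these are the 4 other tropomyosin, transgelin and calponin genes with a row, and their median log2FC was 0.49 (23.9% of all genes were called higher). In the summed FPKM of TAGLN, TAGLN2, CNN2 and CNN3 (291 ± 24.5 in the miR-204 libraries and 305 ± 15.2 in the control libraries), TAGLN2 made up 62.0% ± 1.58 and 70.9% ± 1.95, and CNN3 22.6% ± 1.24 and 13.6% ± 0.738. Neither share overlapped between the groups (two-sided exact permutation p = 0.1, the smallest possible). CNN2 took 11.6% ± 0.687 and 12.02% ± 0.990 of the sum (exact permutation p = 0.6), and TAGLN 3.83% ± 0.522 and 3.54% ± 0.259 (exact permutation p = 0.5).

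**Figure D3:**
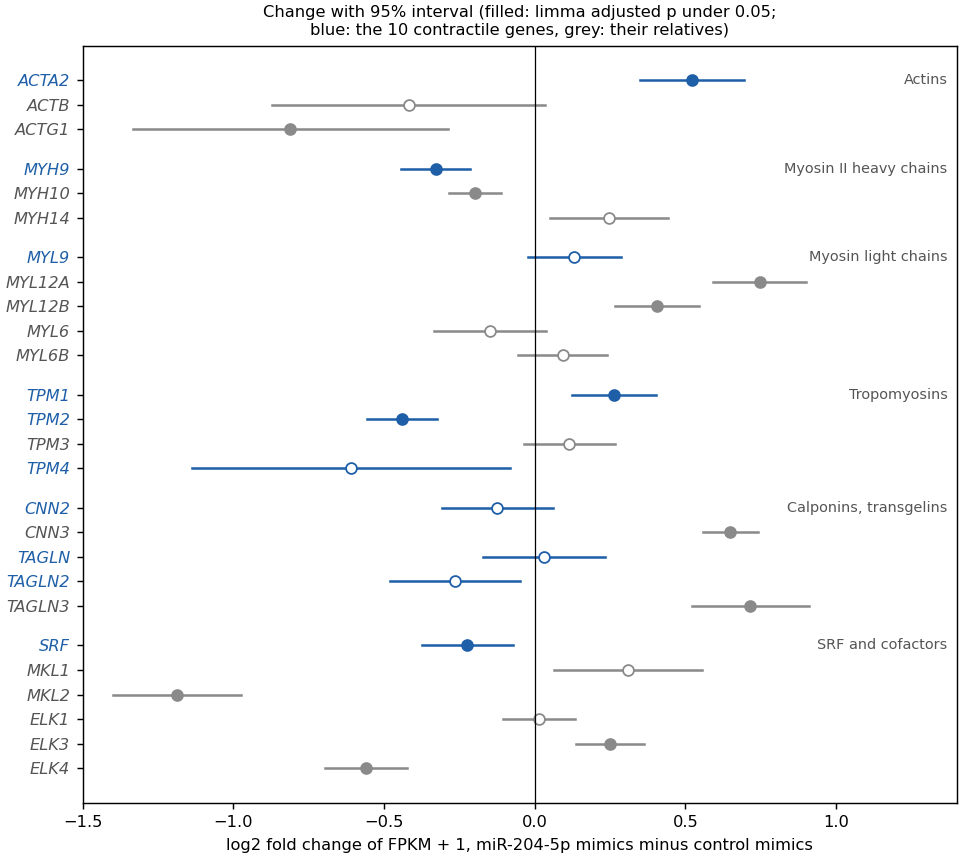
Log2 fold change of FPKM + 1 (miR-204-5p mimics minus control mimics) with its 95% interval for the 10 contractile genes (blue) and their relatives (grey), grouped by role; filled points had a limma adjusted p-value under 0.05. Within each of the actin, tropomyosin and myosin heavy chain groups the points lie on both sides of 0, with ACTA2 at 0.52 and ACTG1 at −0.81 the farthest apart.

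SRF, the transcription factor of the contractile genes, lies on chromosome 6 (43171299 to 43181507, plus strand, 7 exons) and has a single transcript in GENCODE 29. It had 10.1, 10.5 and 11.7 FPKM in the miR-204 libraries and 13.1, 12.8 and 12.3 in the control libraries. The groups did not overlap, though mimics replicate 3 and control replicate 3 lay close together. SRF fell from 12.7 ± 0.431 to 10.8 ± 0.811 FPKM, a log2FC of −0.22 (SE 0.0624, 95% interval −0.37 to −0.07, adjusted p = 0.0289 by limma). The call was lost without mimics replicate 1 (adjusted p = 0.0798 by limma), mimics replicate 2 (adjusted p = 0.0865), control mimics replicate 1 (adjusted p = 0.0872) or control mimics replicate 2 (adjusted p = 0.0775), and with the replicate number as a block (adjusted p = 0.0792).

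Its cofactors moved in both directions. MKL2, which encodes the myocardin-related factor MRTFB, had 3.93, 4.90 and 5.02 FPKM in the miR-204 libraries and 12.1, 11.95 and 11.2 in the control libraries. The miR-204 libraries were all below the control libraries, and MKL2 fell from 11.8 ± 0.503 to 4.62 ± 0.595 FPKM (log2FC −1.19, adjusted p = 0.000195 by limma). For its relative MKL1, which encodes MRTFA, the values were 5.30, 5.78 and 6.54 FPKM in the miR-204 libraries and 4.14, 5.22 and 4.29 in the control libraries. All miR-204 libraries were above the control libraries, but MKL1 did not pass the test (log2FC 0.31, adjusted p = 0.0508 by limma), and it was called higher with a pseudocount of 0.1 (adjusted p = 0.0475), with low genes removed (mean FPKM under 1; adjusted p = 0.0387), without mimics replicate 1 (adjusted p = 0.0495) and without control mimics replicate 2 (adjusted p = 0.0273). Of the ternary complex factors, ELK4 fell from 22.1 ± 0.333 to 14.7 ± 1.04 FPKM (log2FC −0.56, adjusted p = 0.000576 by limma) and ELK3 rose from 13.99 ± 0.570 to 16.8 ± 0.506 FPKM (log2FC 0.25, adjusted p = 0.00673 by limma). ELK1 stood at 9.86 ± 0.105 and 9.77 ± 0.456 FPKM (log2FC 0.01, adjusted p = 0.859 by limma), with a sign that turned with the scaling. The longest 3′UTR of ELK4 held a 7mer-m8 at chr1:205608434-205608440 (minus strand), at a length where 81.6% of genes hold a match and outside the listed transcript, and that of MKL2 held none of the 3 matches. MYOCD has no row and was not analysed here.

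Because SRF acts through the CArG box, the promoters of the contractile genes were searched for it. The pattern used was the strict box, CC and GG around 6 bases that are each A or T, which reads the same way on both strands. Promoters were those of RefSeq on GRCh38.p14, from 250 bases before to 50 after each start site. A strict box was present in 454 of 35116 promoters (1.29%), and in a promoter of 183 of the 11452 table genes with an entry (1.6%). MYL9 and TAGLN have no entry. Of the other 8 contractile genes, 3 had a box, namely SRF, CNN2 and TPM4. The boxes are shown in capitals with 20 bases on each side, on the plus strand, at chr6:43171219-43171288 for SRF, chr19:1026499-1026548 for CNN2 and chr19:16067345-16067394 for TPM4.
SRF: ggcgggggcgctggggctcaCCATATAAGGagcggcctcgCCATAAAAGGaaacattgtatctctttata
CNN2: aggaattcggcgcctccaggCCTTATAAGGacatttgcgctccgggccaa
TPM4: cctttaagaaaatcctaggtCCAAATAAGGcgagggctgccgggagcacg
SRF carries a pair of boxes, which begin 30 and 10 bases before the start site, while the box of CNN2 begins 89 bases and that of TPM4 173 bases before it. These letters describe the windows searched and say nothing of whether SRF binds there. Of the 3 genes with a box, SRF was called lower, and CNN2 and TPM4 were not called, with log2FCs of −0.12 and −0.61. Boxes were also present in other listed genes. Among them were FLNA, FHL2 and ACTN1, called higher, ACTG1 and EGR1, called lower, and SMTN, FHL1, FILIP1L and TGFB1I1, not called. ACTA2, MYH9, TAGLN2, TPM1 and TPM2 had no strict box in these windows. For TPM1 and TPM2 the start sites in the table of promoters lie 5857 and at least 5123 bases from the start of the listed transcript, so the windows searched do not lie at the start of the listed transcripts. The start sites of TPM4 lie 517, 9474 and 9995 bases from that of its listed transcript, and its box lies within the span of that transcript.

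Genes known to be driven by SRF and its actin-sensitive cofactors were called in both directions. Of 15 other cytoskeletal SRF targets 14 had a row, of which 6 were called higher (23.9% of all genes were) and 1 lower (16.8% of all genes), with a median log2FC of 0.18. CYR61 (CCN1), a secreted matricellular protein, rose from 7.32 ± 0.169 to 25.3 ± 1.94 FPKM (log2FC 1.66, adjusted p = 3.09e-05 by limma). CTGF (CCN2), its relative, rose from 0.681 ± 0.184 to 3.35 ± 0.221 FPKM (log2FC 1.38, adjusted p = 0.000149 by limma). Both are also known as targets of the YAP and TAZ coactivators. FLNA, the actin crosslinker filamin A, rose from 63.1 ± 1.20 to 92.4 ± 6.03 FPKM (log2FC 0.54, adjusted p = 0.000523 by limma). FHL2, CALD1 and ANKRD1 were the other 3 called higher, with ANKRD1 under 1 FPKM in every library. ACTG1 was the gene called lower, a call that single control libraries decided.

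The immediate early targets, which SRF drives with the ternary complex factors, had 6 of 8 genes with a row, of which 2 were called lower and 1 higher, with a median log2FC of −0.21. Of all genes, 16.8% were called lower and 23.9% higher, and nothing is read from counts in so short a list. EGR1, an early growth response factor, fell from 5.33 ± 0.772 to 2.11 ± 0.314 FPKM (log2FC −1.02, adjusted p = 0.000881 by limma). JUNB, a subunit of AP-1, fell from 96.2 ± 4.499 to 71.6 ± 3.61 FPKM (log2FC −0.42, adjusted p = 0.00132 by limma), and MCL1, which opposes cell death, rose from 72.5 ± 1.20 to 88.0 ± 7.72 FPKM (log2FC 0.27, adjusted p = 0.0147 by limma). FOS, FOSB and IER2 did not pass the test. An 8mer stood in the longest 3′UTR of EGR1, called lower, of MCL1, called higher, and of FOSB, not called. Of genes with a 3′UTR of like length, 21.4%, 45.1% and 36.4% hold a match. The 8mers of EGR1 and MCL1 lay in the listed transcript, while that of FOSB has no annotated 3′UTR. FOSB was also near the floor, at 0.216 FPKM in the miR-204 libraries and 0.172 in the control libraries.

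Actin crosslinkers and focal adhesion genes, which anchor contractile filaments, were called in both directions. Of 14 genes 3 were called lower and 5 higher, where 16.8% and 23.9% of all genes were, with a median log2FC of −0.08. PDLIM5, an adaptor of alpha-actinin, had 7.26, 7.63 and 13.2 FPKM in the miR-204 libraries and 4.35, 4.61 and 4.03 in the control libraries, a log2FC of 0.91 (adjusted p = 0.0129 by limma) in which mimics replicate 3 stood apart. PXN, the adhesion scaffold paxillin, rose from 17.7 ± 0.863 to 27.1 ± 3.01 FPKM (log2FC 0.58, adjusted p = 0.00212 by limma). VASP, which elongates actin filaments, fell from 18.5 ± 1.22 to 13.3 ± 0.737 FPKM (log2FC −0.44, adjusted p = 0.00237 by limma). The longest 3′UTR of VASP held an 8mer and that of PDLIM5 a 7mer-A1, at lengths where 20% and 54% of genes hold a match. Neither match lay in a 3′UTR of the listed transcript. Among 9 genes that bind monomeric actin 1 was called, where 40.8% of all genes were, and nothing is read from that count. TMSB4X was the gene called. It encodes thymosin beta, which holds actin in monomeric form, and it rose from 81.7 ± 1.87 to 129.5 ± 12.1 FPKM (log2FC 0.65, adjusted p = 0.000706 by limma).

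**Figure D4:**
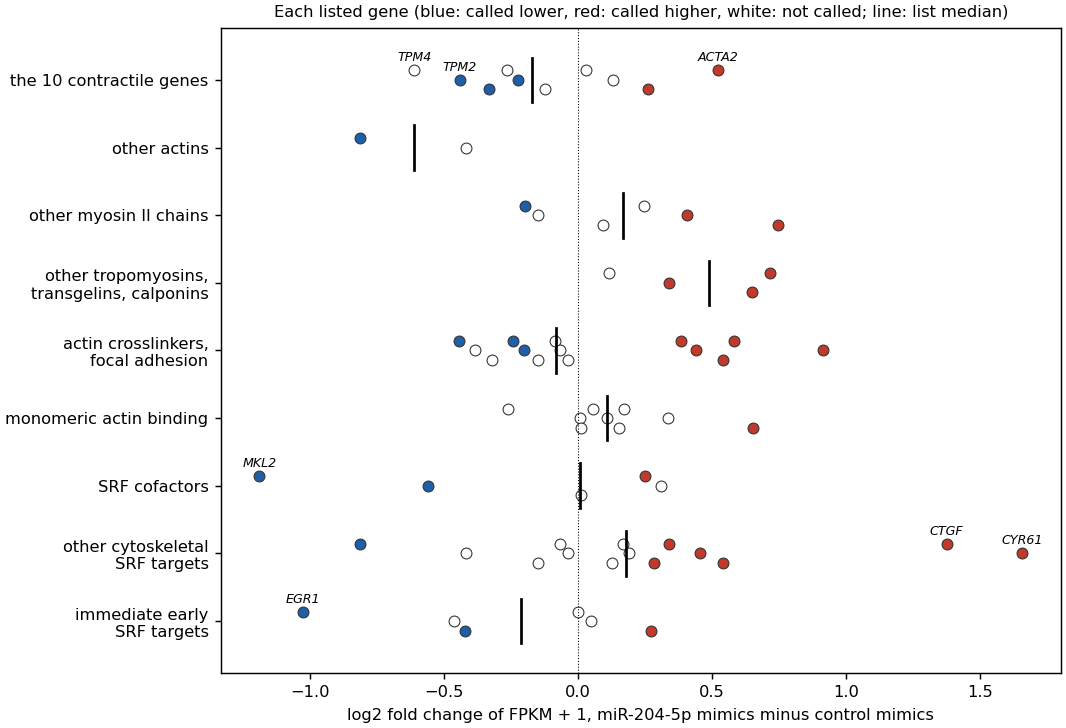
Log2 fold change of FPKM + 1 (miR-204-5p mimics minus control mimics) of each gene in the 10 contractile genes and 8 related lists, with 1 point per gene (blue: called lower, red: called higher, white: not called) and a line at the median of each list. The medians lie between −0.61 (other actins, 2 genes) and 0.49 (other tropomyosins, transgelins and calponins), and the points of the contractile genes lie on both sides of 0.

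Ordered by FPKM, the contractile genes ran with control mimics from TAGLN2 (216) through MYH9 (141), TPM4 (88.5), TPM2 (48.3), CNN2 (36.6), MYL9 (15.5), SRF (12.7), ACTA2 (10.8) and TAGLN (10.8) to TPM1 (8.85). ACTA2 and TAGLN were the only neighbours in that order whose libraries overlapped. With miR-204-5p mimics the first 6 places were the same, and ACTA2 moved above SRF, which took the last place at 10.8 FPKM. There the libraries of TPM2 and CNN2, of MYL9 and ACTA2, of TAGLN and TPM1, and of TPM1 and SRF overlapped. The neighbours were closest at the low end, where 5 genes stood between 9.69 and 18.02 FPKM in all miR-204 libraries.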

How the data were processed

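Total RNA of 6 UM-SCC1 cultures (3 per group) was sequenced by the authors from Illumina TruSeq libraries on a HiSeq X. The submitters' processing notes name HISAT2, StringTie and hg38, with no version. The authors deposited 1 FPKM value per gene and library, normalized for transcript length and depth, beside columns of their edgeR comparison (log2 ratio, p-value and its adjustment), which were not used. Counts were not recovered: among 1174 genes with 1 transcript, 14.1% to 29.3% of low values were whole multiples (within 0.02) of the step.

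The linear model of limma 3.58.1 (R 4.3.3), moderated with a mean-variance trend, was fitted to log2(FPKM + 1) of all 14959 genes with no filter, two-sided, with Benjamini-Hochberg adjustment at 0.05; a log2 fold change on this scale understates that of low genes. The edgeR test of the study needs counts and was not run. The script was tested on simulated data, where 72 of 100 genes changed by 0.5 in log2 were called and 92 of 100 changed by 1. Of the unchanged genes, 10 were called. In the simulation only these genes were changed, none of them low in FPKM, and noise was independent between genes. In the real data 40.8% of genes were called, so these rates need not carry over. The members and lists were chosen with earlier results of these data known. Named were the 10 genes, every listed actin, myosin II chain, tropomyosin, calponin, transgelin and SRF cofactor, and up to 4 further genes per list with the largest change among those called, without overlap and with a mean FPKM over 1. Others (FHL2, ANKRD1, FOS, FOSB, IER2, LASP1, CFL2, EPCAM, ACTN1, FHL1, FILIP1L, TGFB1I1 and low marker genes) were named after their values had been seen. The result of 1 further gene list is not reported here. The listed transcripts of all 10 genes matched GENCODE 29 in coordinates and length. Shares and sequences used Python 3.11.15, pandas 2.3.3 and scipy 1.17.1. Alternatives were a pseudocount of 0.1, a mean FPKM of at least 1, quantile normalization, equal sums, equal medians, the replicate block and each library left out.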

Additional observations from a re-analysis of the deposited data

How the results depend on the processing

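The 12 alternatives changed no direction of a called contractile gene. Scaling to equal medians gave 5 contractile genes called lower. With 1 library left out, 2 to 4 were called lower and 2 to 3 higher, where 2045 to 2271 of all genes were called lower and 2876 to 3138 higher. The log2 fold change of TAGLN became −0.0084 with equal sums, −0.0164 with equal medians and −0.0359 without mimics replicate 2, and ranged up to 0.1176 with single libraries left out. That of ELK1 became −0.0071 with quantile normalization, −0.0267 with equal sums, −0.0347 with equal medians and −0.0207 without control mimics replicate 2 (up to 0.0392 with others left out). The difference in share (percentage points, miR-204-5p mimics minus control mimics) became −0.0112 for TAGLN without mimics replicate 2 (range over libraries left out up to 0.453) and 0.0306 for CNN2 without control mimics replicate 3 (range from −0.960). The cause was not tested. Over all genes, the median log2 fold change moved by less than 0.1 under each scaling. The split of all genes called did depend on it. As deposited, 2520 genes were called lower and 3578 higher, with equal sums 2885 and 3080, and with equal medians 3025 and 3023. The shares of all genes given above are those of the values as deposited.

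Replicates with the same number did not deviate together (correlation of deviations −0.040, −0.021 and −0.108), so the numbers were not taken as pairs. With the replicate block, 2097 genes were called lower and 2999 higher, and 3 contractile genes lower and 2 higher. The limma p-values set the difference between groups against the spread between these 3 cultures per group, moderated over all genes. The smallest exact permutation p is 0.1. Depth in reads is unknown, and values without counts have no counting interval.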

Other observations

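Squamous markers of the cells were called in both directions, 4 of 8 lower and 3 higher, where 16.8% and 23.9% of all genes were. TP63, the master factor of squamous basal cells, fell from 55.9 ± 1.48 to 27.4 ± 3.19 FPKM (mean ± SD of 3 libraries, log2FC −1.01, adjusted p = 0.000276 by limma). The basal keratins KRT5 (174 ± 12.7 to 129 ± 9.67 FPKM, log2FC −0.43, adjusted p = 0.00482 by limma) and KRT14 (118 ± 2.66 to 82.4 ± 2.98 FPKM, −0.51, adjusted p = 0.000229) fell as well. EPCAM fell from 59.62 to 51.35 FPKM and lay near the threshold (log2FC −0.21, adjusted p = 0.04765 by limma). KRT6A rose from 1.24 ± 0.375 to 2.90 ± 0.515 FPKM (log2FC 0.81, adjusted p = 0.00576 by limma). CDH1, which encodes E-cadherin, had a log2FC of 0.39 (adjusted p = 0.000618 by limma), and SFN, the most abundant of the 8 in the miR-204-5p group, rose from 292 ± 7.09 to 350.0 ± 6.86 FPKM (log2FC 0.26, adjusted p = 0.00201 by limma). KRT17 did not pass the test (log2FC −0.18, adjusted p = 0.329 by limma). The longest 3′UTR of TP63 held a 7mer-m8 and that of EPCAM a 7mer-A1, at lengths where 45% and 6.62% of genes hold a match. None of the other squamous markers held a match.

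In some listed genes single libraries stood apart, in 1 group or in both. LASP1, an actin-binding adaptor of focal adhesions, had 21.0, 67.3 and 23.0 FPKM with miR-204-5p mimics and 28.2, 26.9 and 85.6 with control mimics (adjusted p = 0.703 by limma). IER2, an immediate early gene, had 28.8, 12.8 and 12.9 FPKM with miR-204-5p mimics and 12.3, 29.8 and 13.0 with control mimics (limma adjusted p = 1). CFL2, the muscle cofilin, had 8.71 FPKM in mimics replicate 1 and 4.43 to 5.72 in the other 5 libraries (adjusted p = 0.573 by limma). These genes fall outside the naming rule and were picked for this spread.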
